A study of Mus musculus with 24 samples.

Results

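The germline and meiosis genes described here are Ddx4, Dazl, Sycp3, Mael, Tex19.1, Hormad1, Stk31, Dnd1, Prdm1 and Prdm14. The rule lists them by name and uses no measured value, although the list was drawn up with earlier results of these data known. They are 10 of the 20616 named genes with a usable probe on the array. They were read by 11 probes, 1 for each gene and 2 for Hormad1. The study profiled RNA of mouse epiblast stem cells (EpiSCs), embryonic stem cells (mESCs) and dissected embryo tissue on 24 single-colour arrays, 2 for each of 12 groups. EpiSCs derive from epiblast of the implanted embryo and mESCs from the blastocyst, and both kinds are pluripotent. EpiSC lines 129Ba1, 129Ba2 and BNa17 had been established with a Wnt inhibitor, and lines Wt1 and 129C1 by the original protocol. The labels do not say which of them were in the inhibitor when collected. Line 129C1 was also profiled after treatment with IWP2, which blocks the secretion of Wnt proteins. The mESC groups were J1 in 2i, a pair of kinase inhibitors against Mek and Gsk3, then R1 and J1 in conventional medium. The embryo groups were hand-dissected epiblast at E5.5 and at E6.5, and ectoderm of the embryo proper at E7.5. Feeder layers supported every cell line and were removed ahead of RNA extraction, and no group is given a genotype beyond the name of its line.

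Germ cells of the mouse are set apart from the epiblast around the start of gastrulation, when a few cells switch on Prdm1 and Prdm14, which encode transcription regulators of primordial germ cell (PGC) fate. Later germ cells use RNA-binding proteins such as Ddx4, Dazl and Dnd1, the piRNA pathway, which silences transposons and includes Mael, and meiotic chromosome proteins such as Sycp3 and Hormad1. In mouse somatic cells many of the late genes are silenced through DNA methylation of their promoters and through a Polycomb complex that contains Pcgf6, L3mbtl2, E2f6 and the Mga-Max pair, which recognises the letters CACGTG.

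Promoter sequence was at hand for 8 of the 10 genes, from RefSeq on build GRCm38.p6. In the 250 bases before the first listed start, CACGTG (its own reverse complement) was found for 5 of these 8 genes (62.5%). It was found before at least 1 listed start for 1854 of all 27025 genes with a window (6.86%). Counts over all genes and over gene lists here take any listed start, which also gave 5 of these 8. TCCCGC, the core of sites of the E2f family, was found on either strand for 5 of 8 genes, against 5083 of 27025 (18.8%). The longer form TTCCCGC was found for 3 of 8 genes against 1184 of 27025, and GGCGGGA, whose reverse complement also begins with TCCCGC, for 3 of 8 against 2981. The motifs were chosen for the known binding of these repressors, and a match describes letters only, not binding. The genes with CACGTG were Ddx4, Mael, Stk31, Sycp3 and Hormad1. Their windows are printed because they hold CACGTG, with CACGTG and TCCCGC or GCGGGA in capitals, for Ddx4 (chr13:112652311-112652560, minus strand), Mael (chr1:166238745-166238994, minus strand), Stk31 (chr6:49395289-49395538, plus strand), Sycp3 (chr10:88459337-88459586, plus strand) and Hormad1 (chr3:95559427-95559676, plus strand).
Ddx4: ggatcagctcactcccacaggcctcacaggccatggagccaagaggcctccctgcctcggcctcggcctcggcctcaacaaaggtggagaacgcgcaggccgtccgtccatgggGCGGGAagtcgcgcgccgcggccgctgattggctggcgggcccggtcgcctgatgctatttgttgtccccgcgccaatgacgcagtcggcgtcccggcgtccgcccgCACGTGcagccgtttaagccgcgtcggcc
Mael: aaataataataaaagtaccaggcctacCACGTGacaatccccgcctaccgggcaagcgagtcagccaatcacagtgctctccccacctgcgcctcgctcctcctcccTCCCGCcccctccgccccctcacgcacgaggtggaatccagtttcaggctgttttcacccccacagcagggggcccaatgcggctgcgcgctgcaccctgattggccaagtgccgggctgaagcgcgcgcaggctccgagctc
Stk31: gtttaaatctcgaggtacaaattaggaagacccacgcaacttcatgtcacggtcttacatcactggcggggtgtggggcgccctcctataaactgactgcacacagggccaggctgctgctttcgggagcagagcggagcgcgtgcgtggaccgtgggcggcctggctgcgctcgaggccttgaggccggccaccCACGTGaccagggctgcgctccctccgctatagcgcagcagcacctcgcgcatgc
Sycp3: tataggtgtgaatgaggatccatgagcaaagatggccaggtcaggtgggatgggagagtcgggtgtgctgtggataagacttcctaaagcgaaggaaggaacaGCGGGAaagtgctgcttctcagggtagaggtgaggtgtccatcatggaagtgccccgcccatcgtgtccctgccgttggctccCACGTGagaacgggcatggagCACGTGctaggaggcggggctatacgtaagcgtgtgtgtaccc
Hormad1: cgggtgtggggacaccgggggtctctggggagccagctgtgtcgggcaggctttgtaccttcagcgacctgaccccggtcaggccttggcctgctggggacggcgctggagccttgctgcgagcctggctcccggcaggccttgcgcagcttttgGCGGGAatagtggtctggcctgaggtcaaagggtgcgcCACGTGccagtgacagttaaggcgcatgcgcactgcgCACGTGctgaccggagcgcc
CACGTG began 29 bases before the start in Ddx4, 223 in Mael, 55 in Stk31, 64 and 43 in Sycp3, and 57 and 20 in Hormad1. TCCCGC or its complement began 136 bases before the start in Ddx4, 143 in Mael, 147 in Sycp3 and 95 in Hormad1, and was not in the Stk31 window. The Tex19.1 window held TCCCGC once and no CACGTG, and the Dazl and Prdm1 windows held neither. The windows held between 12 (Sycp3) and 31 (Ddx4) CG dinucleotides, against a median of 6 over all windows. The motif counts over all genes were not matched for CG content. Among related lists, CACGTG was present for 6 of 16 piRNA genes with a window (37.5%), 4 of 11 genes of the meiotic axis (36.4%), 6 of 15 germline genes methylated in somatic tissue (40%) and 1 of 15 genes of meiotic recombination and entry (6.67%). TCCCGC was present for 2 of 16 piRNA genes (12.5%), 4 of 11 axis genes (36.4%), 6 of 15 methylated germline genes (40%) and 7 of 15 recombination genes (46.7%). Lists outside the germline held it too, in 4 of 5 definitive endoderm genes (80%) and 3 of 7 extraembryonic ectoderm genes (42.9%).

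A level here is the log2 signal of a probe minus the 75th percentile of its array, so 0 is the 75th percentile. Levels of different probes are not set against each other. The 75th percentile of the signal ran from 69.3 to 252.5, and BNa17 replicate 1 was the dimmest array. Between 36.7% and 53.2% of probes were called well above background. Replicate arrays correlated at r of 0.966 to 0.989, and the labels do not say whether they come from separate cultures or dissections, so the tests may measure technical spread only. The 8 naive pluripotency markers summed to 981.1 to 1150 in mESC lines, against 1.25 to 4.04 in EpiSC groups, in units of the 75th percentile. Of 8 primed epiblast markers, 5 were higher in EpiSC lines than in mESC lines and all 8 were detected in both. Of 10 fibroblast markers, the type of cell in feeder layers, 10 were well above background in every EpiSC and mESC group and 5 in every embryo group (summed signal 58.6 to 339 in the cell lines, against 6.25 to 15.2 in embryo tissue). Their part in the comparisons of lines with embryo was not tested. Oocyte markers were mostly at background, with at most 2 of 8 well above it in any group. At most 3 of 6 markers of adult male germ cells were well above background.

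All 10 genes were lower in EpiSC lines than in mESC lines. A call needs a p below 0.05 in limma after Benjamini-Hochberg adjustment and a change of 2-fold or more, and 12.1% of all 14439 genes tested were called lower. Of the 10 genes, 7 were well above background on all 4 mESC arrays and on none of the 10 arrays of untreated EpiSC lines. These 7 entered the fit through the mESC side alone, so a call for them could hardly be anything but lower, and the other 3 were detected on both sides. For the 7 a fold is given as a bound, the mean of the brighter side over a floor for the dim side. The floor is a mean of log2 values, taking on each array the higher of the lowest signal called well above background there and the gene's own signal. In bulk RNA, fewer cells with a transcript and less transcript in each cell cannot be told apart.

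**Figure D1:**
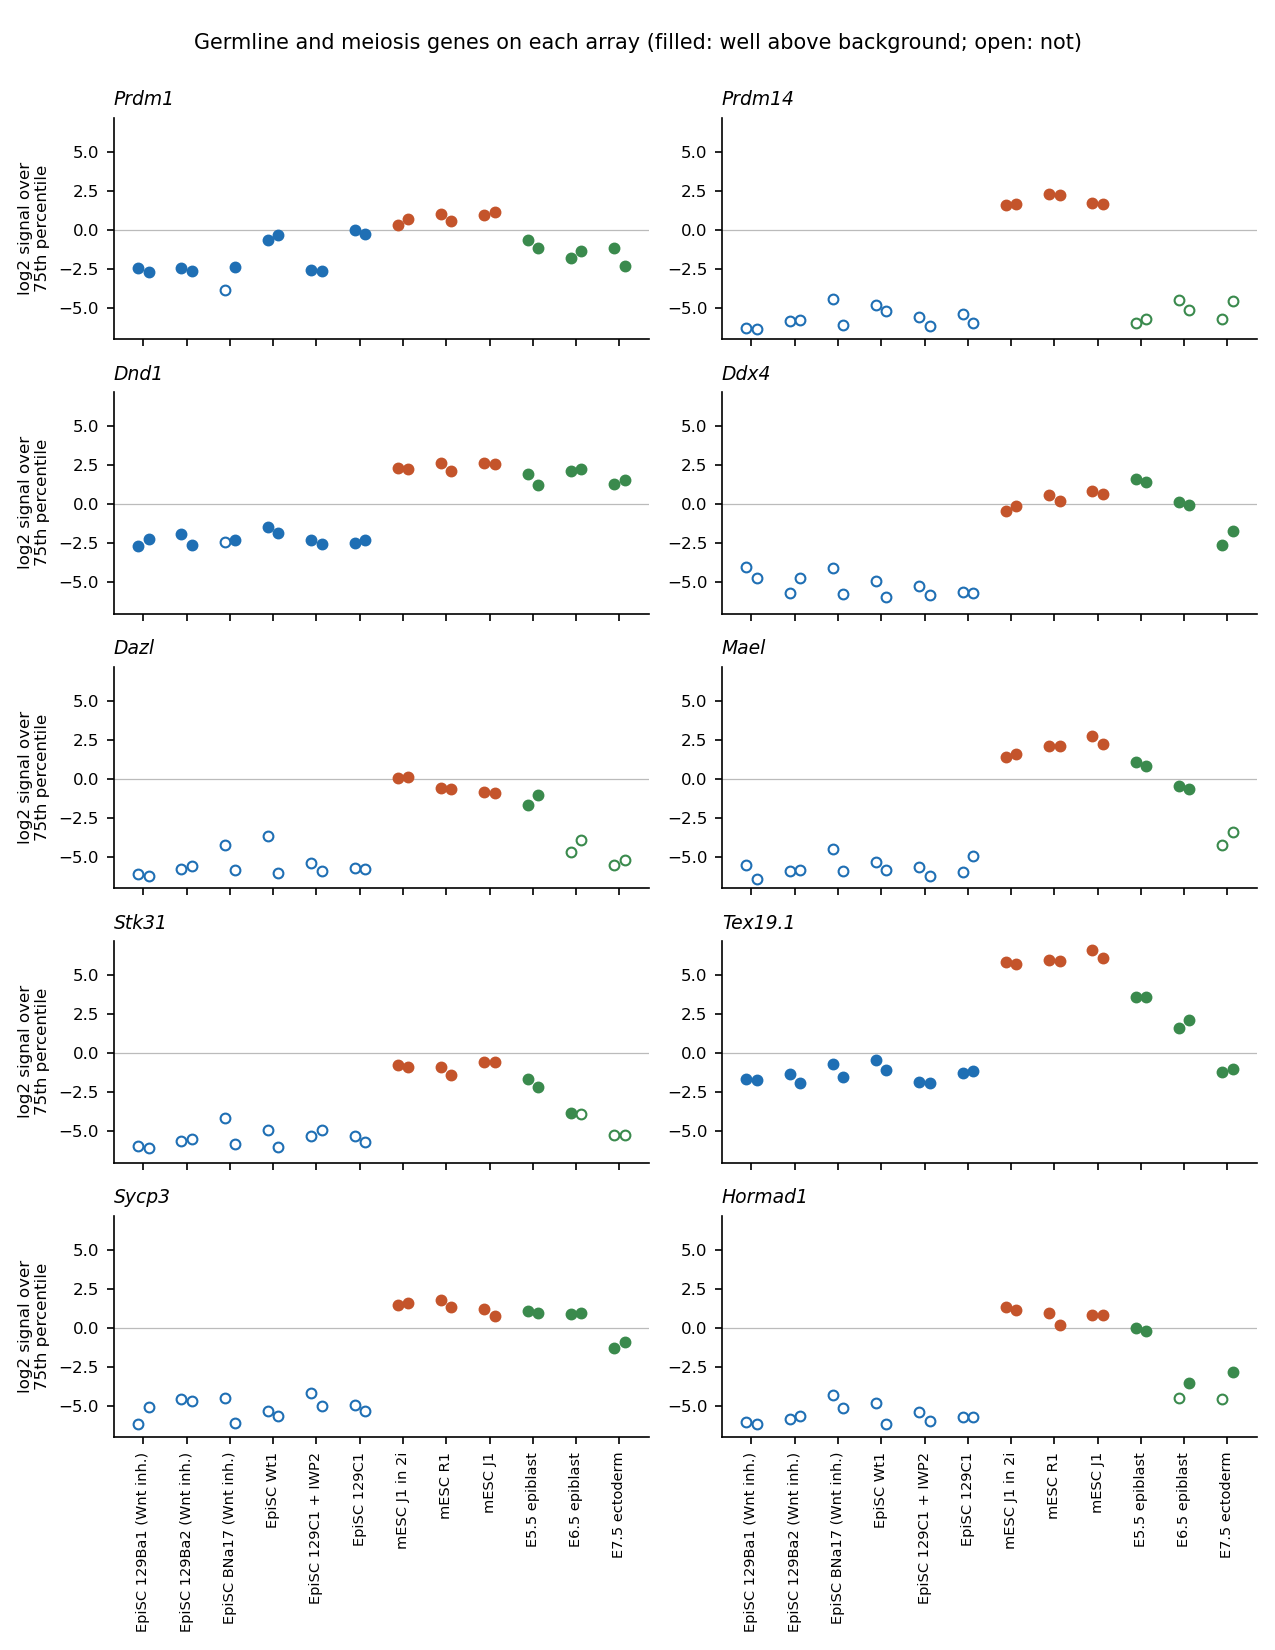
Level of each of the 10 genes on each of the 24 arrays, on the vertical axis as log2 signal over the 75th percentile of the array, by group on the horizontal axis. Filled points are well above background and open points are not. Blue marks EpiSC groups, orange mESC groups and green embryo groups, and 7 genes have only open points in all EpiSC groups.

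Of the PGC regulators, Prdm14 was at -6.38, -5.81 and -4.44 (lowest, median and highest of the EpiSC arrays, none above background), against 2.33 and 2.23 in R1 and 1.72 and 1.69 in J1. It was at least 54.7-fold lower in EpiSC lines (adjusted p = 2.26e-05). Prdm1, which also acts outside the germline, was at -3.86, -2.39 and -0.012 on EpiSC arrays, 9 of 10 of them above background, against 1.01 and 0.59 in R1 and 0.97 and 1.18 in J1. The groups did not overlap, and the difference was -2.70 ± 0.86 (log2, ± SE, adjusted p = 0.0429). That call was lost without 129Ba1 (adjusted p = 0.0738), 129Ba2 (0.0807), BNa17 (0.0669), J1 (0.196) or R1 (0.158), and with slide as a random block (0.056).

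Of the RNA-binding proteins, Dnd1, which protects germ cells from death and binds RNA in the cytoplasm, was at -2.68, -2.27 and -1.47 on EpiSC arrays, against 2.63 and 2.12 in R1 and 2.66 and 2.57 in J1. It differed by -4.70 ± 0.25 (adjusted p = 3.72e-05) and stayed above background on 9 of 10 EpiSC arrays. Ddx4, a helicase of the germ granule, was at -5.92, -5.26 and -4.04 in EpiSC lines, against 0.58 and 0.25 in R1 and 0.84 and 0.69 in J1. It was at least 20.5-fold lower (adjusted p = 6.12e-05). All EpiSC values of both genes lay below all mESC values. Dazl, a regulator of translation in germ cells, was at least 8.03-fold lower in EpiSC lines (adjusted p = 1.64e-04), with -6.20 to -3.67 there against -0.60 and -0.65 in R1 and -0.82 and -0.92 in J1.

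Tex19.1, a germ cell protein that restrains retrotransposons, was the one gene of the set above background on all 24 arrays. It was at -1.90, -1.29 and -0.40 on EpiSC arrays, against 6.001 and 5.89 in R1 and 6.64 and 6.08 in J1. The difference was -7.41 ± 0.29, or 171-fold (adjusted p = 9.14e-06). The piRNA gene Mael was at -6.41 to -4.48 in EpiSC lines, against 2.10 and 2.08 in R1 and 2.77 and 2.26 in J1, and was at least 67.8-fold lower (adjusted p = 4.50e-06). Stk31, which encodes a Tudor domain protein with a kinase-like region found in germ granules, was lower by at least 7.72-fold (adjusted p = 7.16e-05).

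Of the meiotic chromosome proteins, Sycp3, a core element of the synaptonemal axis, was at -6.14, -5.19 and -4.47 on EpiSC arrays, against 1.79 and 1.35 in R1 and 1.21 and 0.79 in J1. It was at least 33.5-fold lower (adjusted p = 1.99e-05). Hormad1, a HORMA domain protein of the unsynapsed axis, was at least 22.5-fold lower (adjusted p = 4.35e-05), with -6.14 to -4.27 in EpiSC lines against 0.97 and 0.21 in R1 and 0.84 and 0.81 in J1. Its second probe also fell, by 3.12 on the log2 scale (SE 0.23, adjusted p = 1.41e-04).

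The related germline lists hold genes lower in EpiSC lines as well, but many of their genes also entered the fit through the mESC side alone (396 of all 14439 genes did) and could hardly be called higher. Of genes of PGC specification, 8 of 11 tested were lower and 0 higher, and of the 10 detected on both sides 7 were lower. They included the maternal factor Dppa3 (-7.20 ± 0.63, above background on 1 of 10 EpiSC arrays), Tfap2c (-5.61 ± 0.84), a transcription factor of PGCs, Ifitm1 (-4.44 ± 1.45, adjusted p = 0.0474) and the ligand Bmp4 (-3.41 ± 0.47). Of genes of the meiotic axis and synapsis, 7 of 8 tested were lower and 0 higher, and of the 3 detected on both sides 2 were lower. The central element gene Syce1 was at least 144-fold lower, the cohesin gene Smc1b at least 46.8-fold, Syce3 at least 43.3-fold, and the cohesin gene Stag3 differed by -5.34 ± 0.65 with 2 of 10 EpiSC arrays above background.

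Of 13 piRNA and germ granule genes tested, 8 were lower and 2 higher, and of the 7 detected on both sides 3 were lower and 1 higher. Gtsf1 and Fkbp6, cofactors of PIWI proteins, were at least 103-fold and 48.9-fold lower, and Tdrd12 and Gpat2 differed by -6.22 ± 0.66 and -5.74 ± 0.40, each with 5 of 10 EpiSC arrays above background. The 2 higher genes, named after their values were seen, were Tdrd7 (2.16 ± 0.43) and Tdrkh (2.68 ± 0.68, above background on 9 of 10 EpiSC arrays and 1 of 4 mESC arrays). Of 16 genes of meiotic recombination and entry, 7 were lower and 2 higher, and of the 7 detected on both sides 1 was lower and 1 higher. Stra8, an inducer of meiosis, was at least 74.4-fold lower, Rec114 at least 47.8-fold, Tex11 at least 22.8-fold and Meioc at least 6.34-fold. The 2 higher genes, also named after their values were seen, were Msh5 (1.001 ± 0.25) and Prdm9, which was above background on 6 of 10 EpiSC arrays and on no mESC array. Of 12 germline genes known to carry methylated promoters in somatic tissue, 8 were lower and 0 higher, and of the 6 detected on both sides 2 were lower. Rpl10l, a retrogene copy of a ribosomal protein gene, was at least 2085-fold lower, Tex14 at least 32.7-fold, and the near-identical tubulin genes Tuba3a and Tuba3b, whose probes may share signal, differed by -8.29 ± 0.29 and -6.03 ± 0.25, with 5 and 3 of 10 EpiSC arrays above background. Tex19.2, the paralog of Tex19.1, was lower too (-2.37).

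Among 22 genes of the repressor machinery, all detected on both sides, 5 were lower and 2 higher (median log2 difference -0.39, against -0.007 over all genes tested). Of all 12118 genes detected on both sides, 1394 were lower and 1169 higher, so the share called higher was near that of all genes. All 22 were well above background on both arrays of every mESC and embryo group, and 21 or 22 in every EpiSC group. Dnmt3l, the catalytically inactive partner of the de novo methyltransferases, differed by -8.49 ± 0.42 and L3mbtl2 by -2.08 ± 0.34. The methyltransferase gene Dnmt3a (1.64 ± 0.32) and Yaf2 (1.46 ± 0.19) were higher in EpiSC lines. For the genes of the CACGTG-binding pair, Mga (-0.43, adjusted p = 0.257) was not called, and Max (-0.95, adjusted p = 0.00574) did not reach 2-fold. EpiSC lines lay on slides 3 and 4 and mESC lines on slides 1 and 2, read on different scan days, so kind of line cannot be told apart from scan day. With slide as a random block 9 of the 10 members were called, Prdm1 being the exception.

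**Figure D2:**
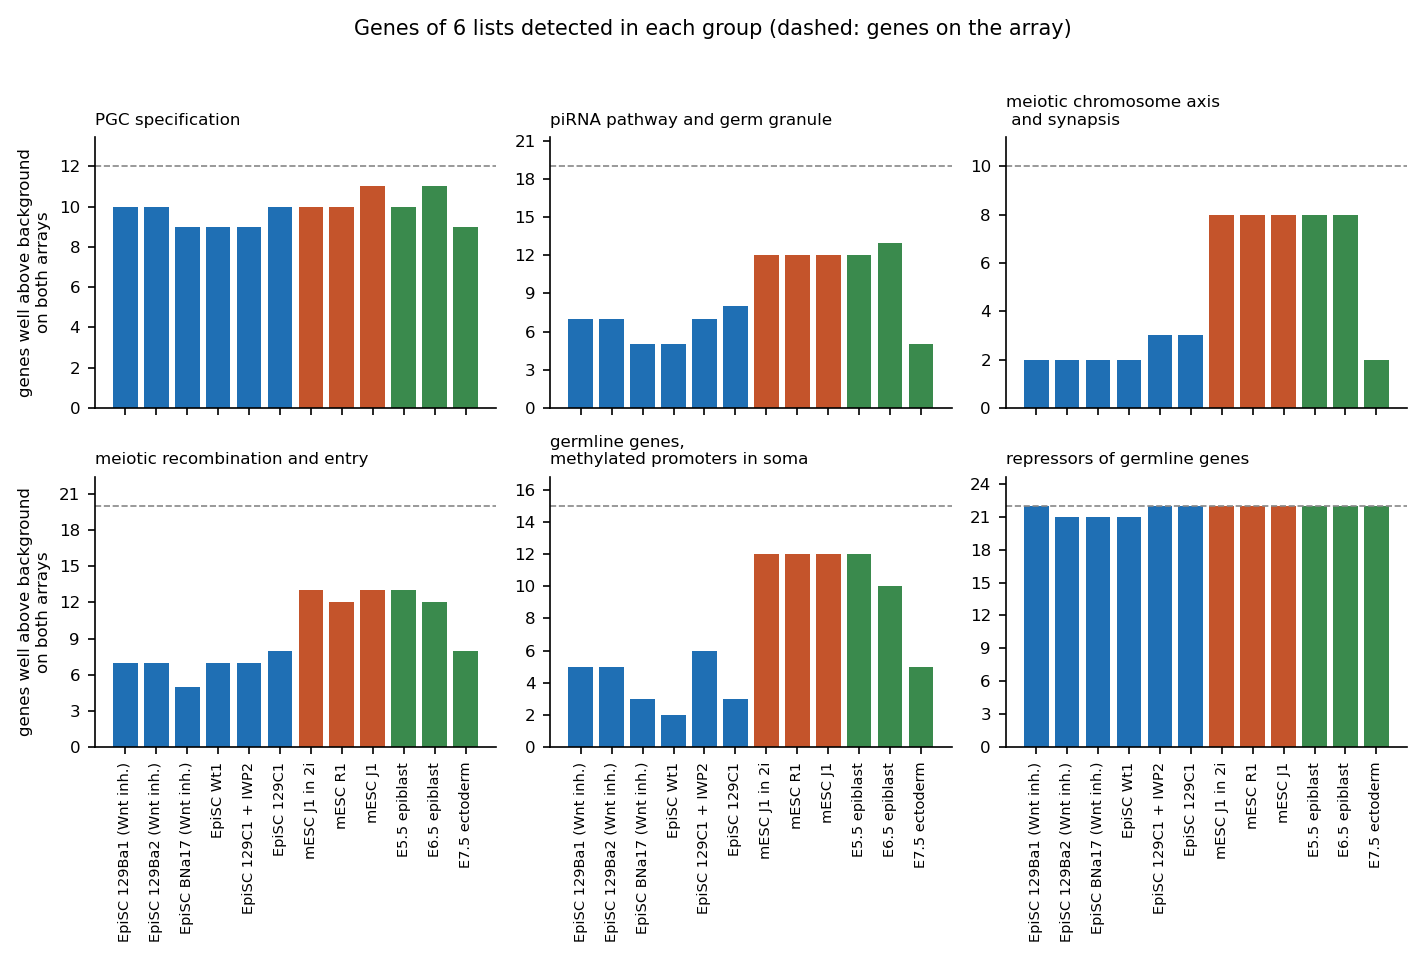
Number of genes of each of 6 lists (vertical axis) that were well above background on both arrays of a group (horizontal axis), with the number on the array as a dashed line. Blue marks EpiSC groups, orange mESC groups and green embryo groups. Of 10 genes of the meiotic axis, 2 or 3 were detected in EpiSC groups, 8 in mESC groups and 8, 8 and 2 at E5.5, E6.5 and E7.5.

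In the embryo most of the set was present at E5.5. In mESC lines against E5.5 epiblast, 4 of the 10 genes were higher and 0 lower, where 14.6% of 14970 genes were called higher. Prdm14 was not above background on either E5.5 array and was at least 63.7-fold higher in mESC lines (adjusted p = 4.83e-06). Tex19.1 had 6.001, 5.89, 6.64 and 6.08 in R1 and J1, against 3.59 and 3.64 at E5.5, without overlap, a difference of 2.54 ± 0.32 (adjusted p = 2.43e-04). Mael (1.34 ± 0.32, adjusted p = 0.00814) and Stk31 (1.07 ± 0.32, adjusted p = 0.0225) were higher by less, and both calls were lost without J1 (1.123 with adjusted p = 0.0635 for Mael, 0.78 with 0.157 for Stk31) or without E5.5 replicate 2 (1.23 with 0.0531, and 0.81 with 0.151).

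The other genes were not called between mESC lines and E5.5. Sycp3 differed by 0.24 (95% confidence interval -0.46 to 0.93), Dazl by 0.58 (-0.38 to 1.54), Hormad1 by 0.82 (-0.41 to 2.05) and Prdm1 by 1.85 (-0.16 to 3.86). Ddx4 had the opposite sign (-0.96, -1.85 to -0.068, adjusted p = 0.0838), with 0.58, 0.25, 0.84 and 0.69 in R1 and J1 below 1.66 and 1.45 at E5.5. Dnd1 passed the test at less than 2-fold (0.92, adjusted p = 0.0335). These groups lay on different slides. J1 and E7.5 ectoderm shared a slide, and in that comparison, added after seeing the data, all 10 genes were higher in J1, where 17.7% of 15090 genes were called higher. Of these 10, 5 were detected in J1 alone and could hardly be called lower. The other 5 were detected on both sides, where 1518 of 11251 genes were called higher. The differences ran from 1.18 ± 0.27 for Dnd1 to 7.48 ± 0.29 for Tex19.1.

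Between stages, 5 of the 10 genes were lower in E6.5 than in E5.5 epiblast, where 2.16% of 15090 genes were called lower, and 5 were lower in E7.5 ectoderm than in E6.5 epiblast, where 8.56% were. At the first step 6 of the 10 were detected at both stages and 2 of these were called lower, against 206 of 12431 genes. At the second step 5 were detected at both and 3 of these were called lower, against 626 of 11910. Another 3 and 1 were detected at the earlier stage alone and could hardly be called higher. The 2 comparisons share the E6.5 arrays. E5.5 and E6.5 shared a slide and E7.5 lay on another slide with another scan day, so at the second step, and in any contrast of the steps, stage and slide cannot be told apart. Dazl was at -1.66 and -0.998 at E5.5, -4.71 and -3.91 at E6.5 and -5.52 and -5.22 at E7.5, above background at E5.5 alone. It was at least 7.43-fold lower at E6.5 than at E5.5 (adjusted p = 0.00536), a call lost without E6.5 replicate 1 (adjusted p = 0.0678) or E5.5 replicate 2 (0.0508). Hormad1 was at -0.024 and -0.20 at E5.5, -4.47 and -3.53 at E6.5 and -4.55 and -2.82 at E7.5, with 1 of 2 arrays above background at each later stage. Its first step was -3.89 ± 0.51 (adjusted p = 2.94e-04) and its second 0.32 ± 0.51, and the steps themselves differed by 4.21 ± 0.88 (adjusted p = 0.0104). That was the one member for which the difference between the steps was called, in a test added after seeing the data, where 6.91% of genes were called.

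**Figure D3:**
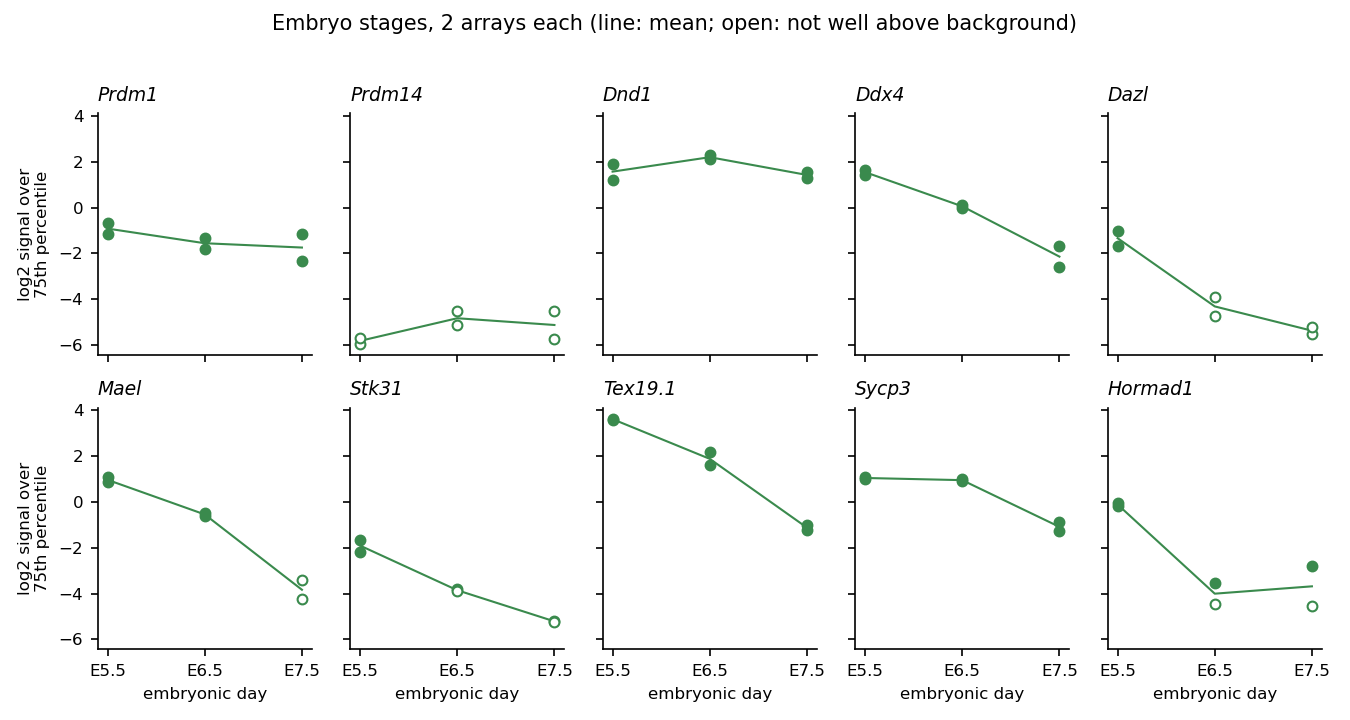
Level of each gene on the 2 arrays of each embryo stage (vertical axis, log2 signal over the 75th percentile) by embryonic day (horizontal axis). Lines join the means, and open points are not well above background. Dnd1 stays between 1.23 and 2.30 at all stages, while Tex19.1 and Mael fall at both steps.

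Tex19.1 fell at both steps, with 3.59 and 3.64 at E5.5, 1.60 and 2.16 at E6.5 and -1.22 and -1.02 at E7.5, without overlap. The steps were -1.73 ± 0.29 (adjusted p = 0.00173) and -3.00 ± 0.29 (adjusted p = 5.57e-06). Mael was at 1.07 and 0.86, then -0.46 and -0.63, then -4.25 and -3.41, where it was no longer above background. Its first step (-1.51 ± 0.45, adjusted p = 0.0496) lost its call when any one of the 4 arrays was left out (adjusted p = 0.135 to 0.218), and by the second it was at least 8.90-fold lower (adjusted p = 1.31e-04). Stk31 was at -1.64 and -2.17, then -3.81 and -3.90, then -5.20 and -5.23. Its steps of -1.95 ± 0.41 (adjusted p = 0.00886) and -1.36 ± 0.41 (adjusted p = 0.0243) lost their calls in 3 of 4 and 4 of 4 such fits (lowest adjusted p 0.0559 and 0.0872), and at E7.5 no array was above background.

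Sycp3 and Ddx4 remained detected at every stage. Sycp3 was at 1.11 and 0.99 at E5.5, 0.92 and 0.99 at E6.5 and -1.28 and -0.89 at E7.5. The first step was -0.095 (95% interval -1.03 to 0.84) and the second -2.04 ± 0.44 (adjusted p = 0.00343), with a difference between steps that was not called (adjusted p = 0.13). Ddx4 was at 1.66 and 1.45, then 0.13 and -0.015, then -2.60 and -1.67. Its first step was not called (-1.49 ± 0.48, adjusted p = 0.0694) and its second was (-2.20 ± 0.48, adjusted p = 0.00399), a call lost without E7.5 replicate 1 (-1.73, adjusted p = 0.0562). Dnd1 was at 1.92 and 1.23, then 2.11 and 2.30, then 1.29 and 1.57, with steps of 0.63 (adjusted p = 0.172) and -0.78 (adjusted p = 0.042, below 2-fold). Prdm1 was above background on all 6 embryo arrays and changed at neither step beyond its spread (-0.64 and -0.19). Prdm14 was not above background on any of them.

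The related lists moved with the stages. At E6.5 against E5.5, 4 of 9 genes of the meiotic axis, 5 of 14 piRNA genes, 3 of 16 genes of recombination and entry and 8 of 14 germline genes methylated in somatic tissue were lower, and 1 gene of all these lists, Tdrd7, was higher. Among these, Gtsf1 differed by -2.81 ± 0.42, Stag3 by -2.72 ± 0.53 and Tex11 by -2.77 ± 0.47. At E7.5 against E6.5 the counts lower were 5 of 9, 4 of 14, 4 of 16 and 6 of 14, and Tdrd7, Stra8 and Tex15, named after their values were seen, were higher. Many genes of these lists entered the E7.5 comparison without being detected at E7.5. Of those detected at both stages, 1 of 2 axis genes, 0 of 5 piRNA genes, 0 of 8 recombination genes and 2 of 5 methylated germline genes were called lower by limma, with an unadjusted p below 0.05 in either direction for 2 of these piRNA genes and 1 of these recombination genes. Rpl10l was at least 40.0-fold lower and Syce3 at least 14.9-fold lower at E7.5. Of the 22 repressor genes Dnmt3l alone was called at each step (-2.85 ± 0.30 and -2.78 ± 0.30). Of 11 genes of PGC specification, 1 was higher and 0 lower at E6.5, Tfap2c (3.33 ± 0.53). At E7.5 against E6.5, 3 were higher, Tfap2c (1.59 ± 0.53), Kit (2.17 ± 0.22) and Ifitm1 (1.25 ± 0.32), and 3 were lower, Bmp8b (at least 2.79-fold), Ifitm3 (-1.32 ± 0.22) and Nanos3 (-1.03 ± 0.20).

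Markers of other tissues also differed between the dissected stages. The definitive endoderm genes Foxa2 (3.58), Gsc (3.60) and Gata6 (3.15) were higher at E6.5 than at E5.5. Of 8 extraembryonic ectoderm markers, 3 were higher and 1 lower at that step. At this step 3 definitive endoderm and 4 extraembryonic ectoderm markers were detected at E6.5 alone and could hardly be called lower. All 8 visceral endoderm markers and 7 of 8 definitive endoderm markers were lower at E7.5 than at E6.5. Of 10 fibroblast markers, 6 were higher and 1 lower. Among all 15090 genes, 1292 were called lower and 951 higher. Of the visceral and definitive endoderm markers, 6 and 3 were detected at E6.5 alone and could hardly be called higher. Of the 2 and 5 detected at both stages, 2 and 4 were lower. Of the fibroblast markers, 4 were detected at both stages, with 3 of them higher, and 4 at neither. Of the extraembryonic ectoderm markers, Cdx2 (5.68), Gata3 (2.92) and Hand1 (2.92) were higher, and Eomes (-4.48), Elf5 (at least 8.67-fold) and Bmp8b (at least 2.79-fold) were lower. At E5.5 the summed visceral endoderm markers differed between the arrays (7.14 and 81.6). Their part in the changes of the germline genes was not tested.

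EpiSC lines were then set against each stage, in 1 fit in which all 3 comparisons share the EpiSC lines. The lines and the embryo tissue lay on different slides, which cannot be told apart from the difference between them. Against E5.5 epiblast, 8 of the 10 genes were lower in EpiSC lines, where 9.65% of 14970 genes were called lower. Against E6.5 epiblast 8 were lower (background 9.20%), and against E7.5 ectoderm 5 were (background 6.36%). Only 3 of the 10 genes were detected on both sides in each comparison, and 2, 2 and 1 of them were called lower. Of all genes detected on both sides, 1010 of 12200, 983 of 12842 and 778 of 11971 were. Another 6, 3 and 2 of the 10 were detected in the embryo group alone and could hardly be called higher. The remaining 1, 4 and 5 were detected on neither side. Tex19.1 was -1.90 to -0.40 on EpiSC arrays, against -1.22 and -1.02 at E7.5, so that the groups overlapped. It differed by -4.88 ± 0.27 against E5.5, -3.14 ± 0.27 against E6.5 and -0.14 against E7.5 (95% interval -0.73 to 0.45). Dnd1 differed by -3.78 ± 0.25, -4.41 ± 0.25 and -3.64 ± 0.25, all called (adjusted p = 4.29e-06, 3.24e-06 and 1.21e-05).

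**Figure D4:**
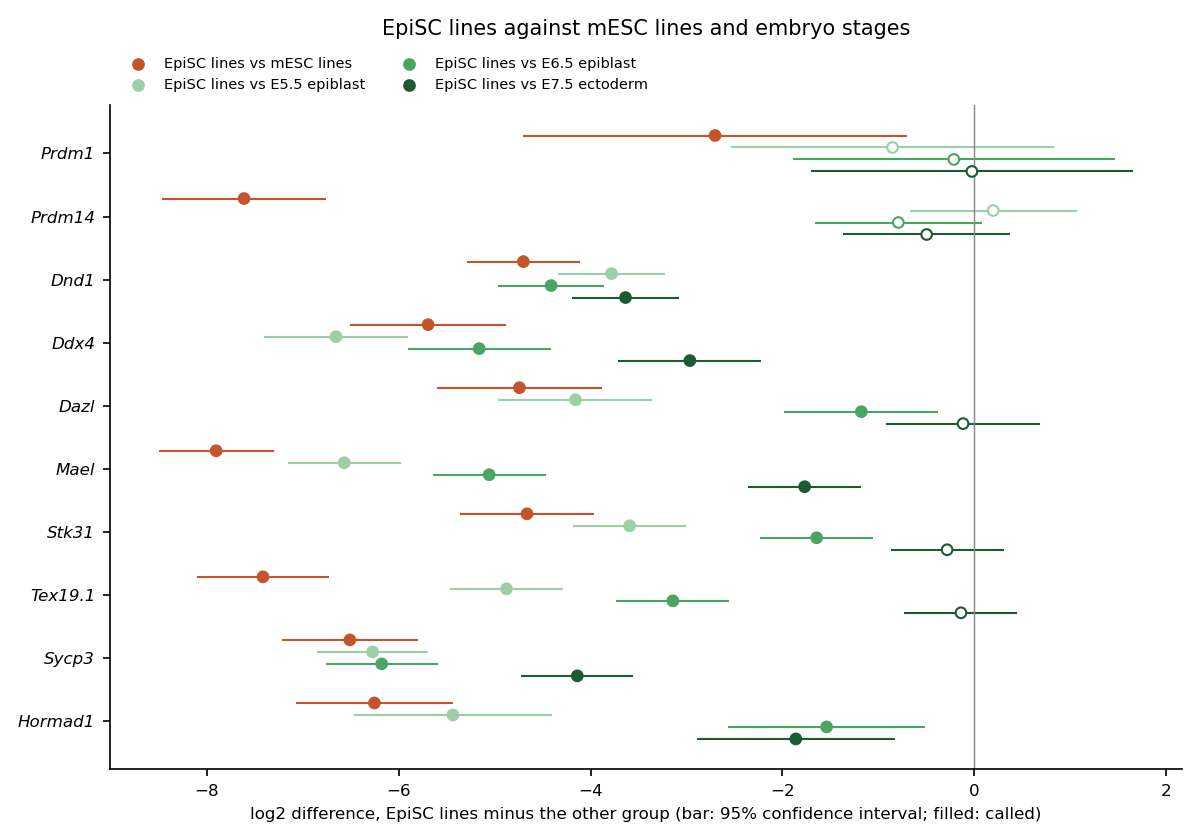
Log2 difference of EpiSC lines minus mESC lines, E5.5 epiblast, E6.5 epiblast and E7.5 ectoderm (horizontal axis) for each gene (vertical axis), with bars for the 95% confidence interval. Filled points are called and open points are not. The points for E7.5 lie nearest to 0 for Ddx4, Dazl, Mael, Stk31, Tex19.1 and Sycp3, while Dnd1 lies below -3.6 in every comparison.

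Sycp3 was at least 28.5-fold lower in EpiSC lines than at E5.5, at least 26.6-fold lower than at E6.5 and at least 6.48-fold lower than at E7.5 (adjusted p = 1.63e-07, 1.09e-06 and 7.40e-06). Ddx4 was at least 39.9-fold, 14.2-fold and 3.10-fold lower (adjusted p = 7.38e-07, 7.42e-06 and 1.99e-04). Mael was at least 26.9-fold lower than at E5.5 and 9.43-fold lower than at E6.5. Against E7.5 it was called (-1.77 ± 0.27), but no array of either group was above background there, so no fold is given. Dazl (at least 5.36-fold), Hormad1 (at least 12.8-fold) and Stk31 (at least 3.67-fold) were lower than at E5.5.

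At the later stages these last genes were themselves near background. Against E6.5, Dazl was called with no array of either group above background. Stk31 (-1.64 ± 0.27) and Hormad1 (-1.54 ± 0.46, adjusted p = 0.0241) were called with 1 of 2 E6.5 arrays above background. Against E7.5, Dazl and Stk31 were not called and Hormad1 was (-1.86 ± 0.46, adjusted p = 0.0127), with 1 of 2 E7.5 arrays above background. The Hormad1 calls were lost without E6.5 replicate 2 (-1.07, adjusted p = 0.229) and without E7.5 replicate 2 (-0.99, adjusted p = 0.181). Its second probe differed by 0.15 and -0.045 in these comparisons and was not called. Prdm1 was not called against any stage (-0.85, -0.21 and -0.025), and Prdm14 was at background on all EpiSC and embryo arrays.

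Within the EpiSC groups the set was at background apart from Tex19.1, Dnd1 and Prdm1. Of these, Prdm1 alone was called after IWP2 against untreated 129C1 and in the Wnt inhibitor lines. After IWP2, 129C1 had Prdm1 at -2.58 and -2.66, against -0.012 and -0.24 in untreated 129C1. The difference was -2.49 ± 0.42 (5.63-fold, adjusted p = 0.00176), the one call among the 10 genes, where 2.49% of 15090 genes were called lower. Tex19.1 was at -1.86 and -1.87 in treated cells, against -1.28 and -1.14 in untreated cells, and was not called (-0.65, adjusted p = 0.252). Prdm1 and Tex19.1 were the 2 genes of the set with an unadjusted p below 0.05 in limma. These groups lay on different slides. Against Wt1, which shared a slide with the treated cells and had Prdm1 at -0.63 and -0.30, treated 129C1 was also lower for Tex19.1 (-1.13, adjusted p = 0.0103). Wt1 is a different line, so line and treatment cannot be told apart there.

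In the lines established with a Wnt inhibitor, Prdm1 was at -2.46 and -2.73 in 129Ba1, -2.44 and -2.64 in 129Ba2 and -3.86 and -2.35 in BNa17, against -0.63 and -0.30 in Wt1 and -0.012 and -0.24 in 129C1. The line means differed by -2.45 ± 0.26 (5.46-fold, adjusted p = 0.0212, 3 against 2 lines), where 1.04% of 14043 genes were called lower. The groups did not overlap on any array. The call was lost without 129Ba1 (-2.52, adjusted p = 0.0694), 129Ba2 (-2.55, 0.0892) or BNa17 (-2.27, 0.0712). The array of BNa17 at -3.86 was not above background. Only Tex19.1 (-0.48, adjusted p = 0.431) and Dnd1 (-0.35, adjusted p = 0.538) among the other genes could be tested, since the remaining 7 passed the filter in no EpiSC line.

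**Figure D5:**
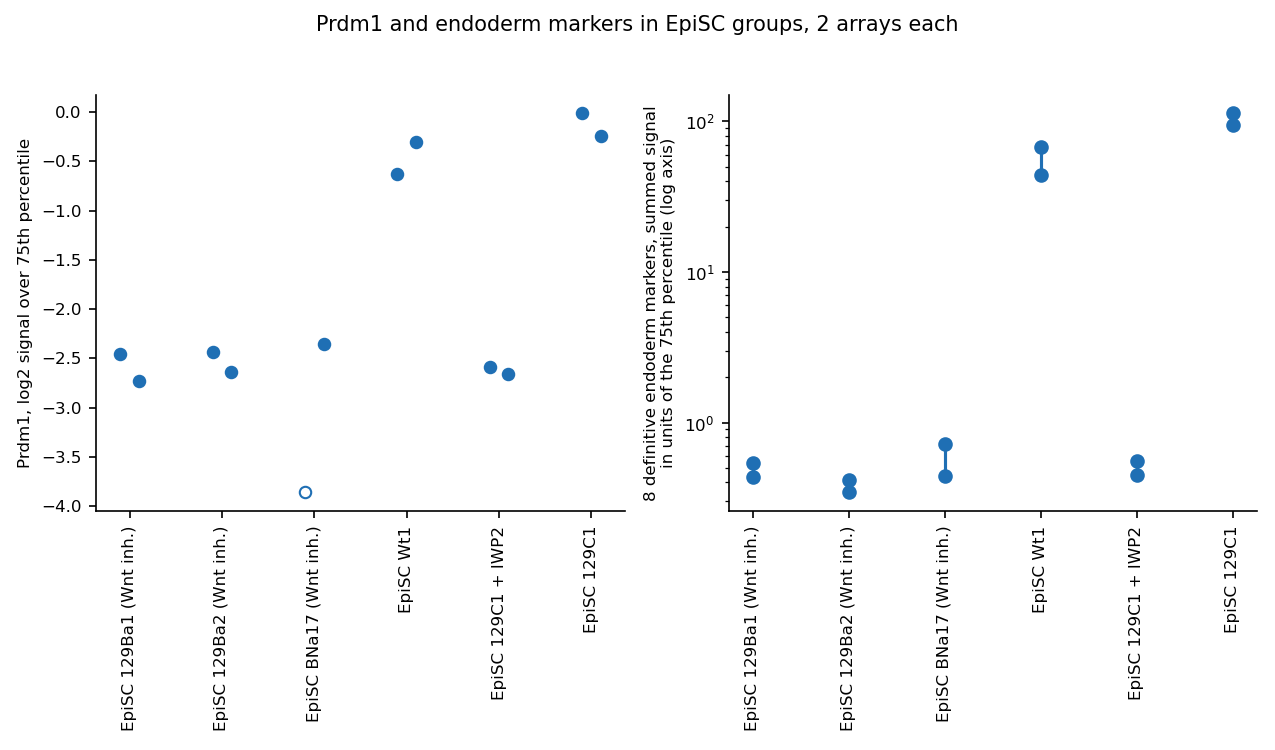
Left, Prdm1 on each array of the 6 EpiSC groups (log2 signal over the 75th percentile; the open point is not well above background). Right, the summed signal of 8 definitive endoderm markers on the same arrays in units of the 75th percentile, on a log axis. Both are high in Wt1 and untreated 129C1 and low in the Wnt inhibitor lines and IWP2-treated 129C1.

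Definitive endoderm markers moved with Prdm1, which is also expressed in endoderm of the mouse embryo. All 8 were lower after IWP2 and all 8 were lower in the Wnt inhibitor lines, where 2.49% and 1.04% of all genes tested were called lower. In the IWP2 comparison all 8 were detected in untreated 129C1 alone. In the other comparison 6 were detected in the original lines alone. Such markers could hardly be called higher. The other 2 were detected in both kinds of line and were lower. The summed signal of the 8 markers was 0.448 to 0.554 in treated 129C1, against 94.4 to 112.8 in untreated 129C1. In the Wnt inhibitor lines it was 0.345 to 0.725, against 43.7 to 112.8 in the original lines. In these lines Sox17, Cer1 and Gata4 were not above background on any array. The part of endoderm cells in the Prdm1 difference was not tested. Of PGC genes, Ifitm1 (-2.51 ± 0.32) and Kit (-1.47) were lower after IWP2 and Ifitm1 (-4.10) and Tfap2c (-2.31) in the Wnt inhibitor lines, while Nxf2, of the germline genes methylated in somatic tissue, was higher after IWP2 (at least 3.22-fold, 1 of 14 genes). The lists of the meiotic axis, piRNA and recombination genes had 0 calls by limma in either comparison (unadjusted p below 0.05 for 1, 1 and 0 genes after IWP2 and for 0, 2 and 2 genes in the Wnt inhibitor lines).

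In 2i none of the 10 genes was called by limma in J1, where 13.0% of 15090 genes were called in either direction, and 1 gene, Mael, had an unadjusted p below 0.05. Mael was at 1.39 and 1.60 in 2i, against 2.77 and 2.26 in conventional medium (-1.02, 95% interval -1.98 to -0.063). Ddx4 was at -0.40 and -0.12 in 2i, against 0.84 and 0.69 (-1.03, -2.05 to 0.0024). Dazl was at 0.089 and 0.098 in 2i, against -0.82 and -0.92 (0.96, -0.28 to 2.20). None of these differences passed the threshold. When only the 4 arrays compared entered the fit, Ddx4 (adjusted p = 0.0182) and Mael (adjusted p = 0.035) were called lower. Prdm14 was at 1.62 and 1.64 in 2i, against 1.72 and 1.69 (-0.074, -1.002 to 0.86).

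Over the 5 related germline lists, 9 of 63 distinct genes were called in 2i (14.3%), close to the 13.0% of all genes. Of 14 piRNA genes, 4 were lower, among them Tdrd5 (-2.22 ± 0.28), Tdrd7 (-1.14 ± 0.24) and Tdrkh (-2.14 ± 0.35, above background on no array in 2i and 1 of 2 in conventional medium), while Henmt1 was called at background on both sides. Of 11 genes of PGC specification, Bmp8b (at least 3.21-fold) and Sall4 (-1.37 ± 0.32) were lower. Of 14 germline genes methylated in somatic tissue, Nxf2 (1.22 ± 0.33) and Tuba3a (1.03 ± 0.26) were higher and Zcwpw1 (-1.41 ± 0.28) was lower. Of 9 genes of the meiotic axis and 16 of recombination and entry, 0 were called by limma (3 and 4 had an unadjusted p below 0.05). Among the 22 repressors, Dnmt3b (-1.33 ± 0.23), Pcgf6 (-1.20 ± 0.24) and L3mbtl2 (-1.16 ± 0.21) were lower in 2i. Of all 11868 genes detected on both sides, 632 were called lower. Markers of differentiation were lower in 2i too. For definitive endoderm 4 of 8 were, with Cer1 at least 35.2-fold lower and Foxa2 at -3.89. For primed epiblast 4 of 8 were, with Fgf5 at -4.62 and Pou3f1 at -3.32. Of the definitive endoderm markers, 4 were detected in conventional medium alone and could hardly be called higher. The part of these differentiation markers in the germline values was not tested. J1 in 2i, R1 and J1 lay on 3 different slides, so slide and group cannot be told apart there. Between R1 and J1, 0 of the 10 genes were called by limma and 0 had an unadjusted p below 0.05, where 0.530% of genes were called. The largest difference was -0.57 for Stk31 (95% interval -1.46 to 0.31), followed by 0.57 each for Prdm14 and Sycp3.

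Over the 12 group means the genes of the set had pairwise Pearson r from 0.577 (Ddx4 and Prdm1) to 0.986 (Stk31 and Tex19.1). This is a description over groups that share lines and slides, with 7 of the 10 genes at background in every EpiSC group. The r of pairs outside the set is not given, so these values do not set it apart from other genes. Among 15080 genes compared, those with the most similar pattern to Mael were Syce1 (r = 0.996), Prr23a3 (0.994) and Meioc (0.991), for Tex19.1 they were Wbp2nl (0.996), Gtsf1 (0.995) and D1Pas1 (0.993), and for Stk31 they were Tex11 (0.996), Mov10l1 (0.996) and Wbp2nl (0.993). Dazl was nearest to Ct55 (0.986), Tex11 (0.986) and Prss38 (0.985), and Ddx4 to Cyct (0.981), Zpr1 (0.977) and Adad2 (0.975). Sycp3 was nearest to Actr3b (0.988), Kmt2b (0.985) and Adad2 (0.985), and Hormad1 to D630023F18Rik (0.986), Nlrp4f (0.982) and Gm4984 (0.979). Dnd1 was nearest to Rps4l (0.973), Mepce (0.971) and Noxred1 (0.971), and Prdm14 to Atp6v0a4 (0.992), Gm20767 (0.992) and Khdc3 (0.990). Prdm1 was nearest to Cpsf4l (0.976), Gpx2 (0.974) and Slc39a4 (0.945).

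The order of the group levels differed among the genes. It is an order of means of 2 arrays, and none of the 10 genes was called between R1 and J1 or between J1 in 2i and J1. Tex19.1 and Mael were highest in J1, then R1, then J1 in 2i, then E5.5 and E6.5. Ddx4 was highest at E5.5, followed by J1, R1, E6.5 and J1 in 2i. Dazl was highest in J1 in 2i, then R1 and J1, with E5.5 next. Dnd1 was high in all mESC and embryo groups, and its lowest embryo value (1.23) lay above its highest EpiSC value (-1.47). Prdm1 was highest in the mESC groups, followed by 129C1, Wt1 and then the embryo stages.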

How the data were processed

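RNA of 24 samples was hybridised to single-colour arrays, read with Agilent Feature Extraction 10.5.1.1 per the submitters' processing notes. The authors deposited 1 raw file per array with a processed signal for each spot, a linear intensity per the file headers, and a table of log2 values whose columns correlated with their own raw array at r of at least 0.99999. No p-values were taken from the authors. Here, control and flagged spots were left out, the log2 processed signal was scaled by the 75th percentile of each array, and a gene with several probes was represented by its brightest probe. Genes were named by RefSeq accession. Genes detected on both arrays of some group in a fit entered that fit. Tests used limma 3.58.1 in R 4.3.3, with line means for EpiSC and mESC lines (embryo arrays added) and all 24 arrays as 12 groups elsewhere. Adjusted p-values are Benjamini-Hochberg values over all genes tested, two-sided. The fits were tested on simulated data. Depth of an array is its share of probes above background; 2 arrays per group limit precision. The members, related lists, motifs and tests were chosen with earlier results of these data known. The text names the 10 members always, up to 4 called genes of each list with the largest change in EpiSC against mESC lines and in 2i, and the 3 nearest genes by Pearson r. Same-numbered replicates deviated together at r of -0.084 to 0.221 over 6 comparisons with 2 pairs each, which does not show pairing. Alternatives covered background correction, normalization, the authors' table, the filter, probe choice, replicate unit, slide, and leaving out each array or line. The normexp alternative used median in place of mean signals, since the files used here hold the median.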

Additional observations from a re-analysis of the deposited data

How the results depend on the processing

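Under the alternatives, 62 of 96 differences of single members kept their direction and their side of the threshold in every setting tried. The causes of the other changes were not tested. With normexp background correction, which adds an offset and so shrinks changes of dim probes, the genes called numbered 1957 (748 higher, 1209 lower) for EpiSC against mESC lines, where 1862 higher and 1753 lower were called before, 2047 (1377 higher, 670 lower) for mESC lines against E5.5, where 2188 higher and 1888 lower were called before, 1690, 1762 and 1303 for EpiSC lines against E5.5, E6.5 and E7.5, 613 for 2i, 37 for R1 against J1, 272 for IWP2, 299 and 866 for the stage steps and 2796 for J1 against E7.5. The members called then numbered 5 against E6.5, 2 against E7.5 and 0 for the Wnt inhibitor lines. Signs turned under normexp for Stk31 at E7.5 against E6.5 (0.090), for Hormad1 (0.055), Stk31 (0.056) and Prdm1 (0.19) in EpiSC lines against E6.5, for Prdm1 against E7.5 (0.19) and for Dnd1 after IWP2 (0.10). With quantile normalization 1 member was called in 2i, and 690 genes were higher and 1265 lower there, against 912 higher and 1056 lower before. With only the arrays compared, 14 genes were called for R1, 276 for IWP2, 344 for E6.5 against E5.5, and 2 members in 2i. For the Wnt inhibitor lines 135 genes were called without a filter, 726 with the line as a random block and 1656 within 1 slide, where Dnd1 differed by 0.013. Treated 129C1 against Wt1 within 1 slide gave 2097 genes and 2 members. For mESC lines against E5.5, 2 members were called with the line as a random block. The within-slide stand-in of J1 against E7.5 gave 10, with Ddx4 at 2.90. That stand-in takes another stage and leaves out R1, and Ddx4 was at 1.55 at E5.5 and -2.14 at E7.5. It cannot show how the comparison with E5.5 depends on the slide. The mean of both Hormad1 probes gave 0.033 for R1 against J1 and -0.013 for mESC lines against E5.5.

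Leaving out 1 array or line gave 1965 to 3727 genes for EpiSC against mESC lines, 40 to 609 for the Wnt inhibitor lines, 2218 to 3434 and 1723 to 2823 for EpiSC lines against E6.5 and E7.5, 64 to 131 for R1, and 412 to 740 for E6.5 against E5.5. Members called ranged from 0 to 1 for the Wnt inhibitor lines, 2 to 5 for mESC lines against E5.5, 2 to 3 for E6.5 against E5.5 and 3 to 4 for E7.5 against E6.5. Differences near 0 turned: Hormad1 (-0.55 to 1.19) and Prdm1 (-0.78 to 0.41) at E7.5 against E6.5, Prdm1 in EpiSC lines against E6.5 (-0.62 to 0.12) and E7.5 (-0.62 to 0.57), Dnd1 after IWP2 (-0.17 to 0.063), in R1 (-0.50 to 0.020) and in the Wnt inhibitor lines (-0.71 to 0.013), Hormad1 in R1 (-0.62 to 0.15) and Sycp3 in mESC lines against E5.5 (-0.046 to 0.52). Leaving out the dim array BNa17 replicate 1 was chosen after seeing the data.

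With the replicate number as a block, the first step of Mael lost its call (-1.51, adjusted p = 0.0543), and no other call of a member changed in these comparisons. The numbers are not shown to pair the samples.

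For 7 members no EpiSC array was above background, so only bounds exist there, and differences among EpiSC groups in these genes were not detectable at this signal. Every group has 2 arrays, and the source of the replicates is not given for any group.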
